A study of Mus musculus with 4 samples.

Results

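Megakaryocyte and platelet transcripts were examined in the heart outflow tract, the region through which the embryonic ventricles empty, of E12.5 (embryonic day) C57BL/6 mice. The 9 genes were taken by name from the count table: Pf4, Ppbp, Gp9, Gp1ba, Gp1bb, Gp6, Treml1, Clec1b and Tubb1. All 9 were found among the 45706 genes of the table. In Sox17eKO embryos, Sox17, the gene for an endothelial transcription factor, had been deleted in aortic root endothelium through a Cre recombinase driven by an Nfatc1 enhancer, and the comparison group was labelled wild type (WT). For the WT embryos, the presence of a Cre or a floxed allele is not given in the sources used here. Each genotype had 2 libraries, each made from the pooled outflow tracts of 10 hearts.

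Megakaryocytes are large blood-forming cells that shed platelets into the circulation, and in the embryo they arise from yolk sac and fetal liver progenitors. Platelets stop bleeding by adhering to exposed collagen and von Willebrand factor, then releasing granules filled with chemokines and clotting proteins. In the developing mouse they also help to keep the lymphatic vessels separate from the blood vessels, through the platelet receptor encoded by Clec1b and its ligand podoplanin. Their transcripts can reach a dissected tissue with the blood it holds. In a bulk sample, fewer megakaryocytes or platelets and less RNA per cell cannot be told apart.

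Reads assigned to genes numbered 14306550 and 21883956 in Sox17eKO replicates 1 and 2 and 12880081 and 8113463 in WT replicates 1 and 2. The 9 genes together had 297 and 446 of those reads in the Sox17eKO libraries and 416 and 189 in the WT libraries, so each gene rested on few reads. The deleted gene was lower, with 2.79 ± 0.0436 CPM in Sox17eKO and 6.44 ± 0.553 CPM in WT (mean ± SD, n = 2 pools each; log2 fold change -1.19, edgeR adjusted p = 0.00574, and 0.0786 without WT replicate 2), where CPM is the read count of a gene relative to the library total, scaled with TMM factors. Myh7 and Acta2, which encode contractile proteins of cardiac and smooth muscle, and the endothelial receptor gene Tek were well expressed in all 4 libraries (at least 7049, 1128 and 201.5 CPM). Reads outside annotated features made up 34.1% and 29.5% of uniquely placed reads in Sox17eKO and 22.2% and 20.4% in WT, and the part of that difference in the results was not tested.

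All 9 genes were detected in all 4 libraries, at low level. Their summed level was 20.5 and 20.3 CPM in the Sox17eKO libraries, against 32.3 and 23.9 CPM in the WT libraries. Both Sox17eKO libraries were below both WT libraries, with an SD of 0.138 CPM between the Sox17eKO pools and of 5.91 CPM between the WT pools. The ratio of the means was 0.726. It was a log2 ratio of -0.46, which became -0.23 without WT replicate 1 and -0.66 without WT replicate 2, so its size depended on which WT pool was used. No test was made of the sum.

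**Figure D1:**
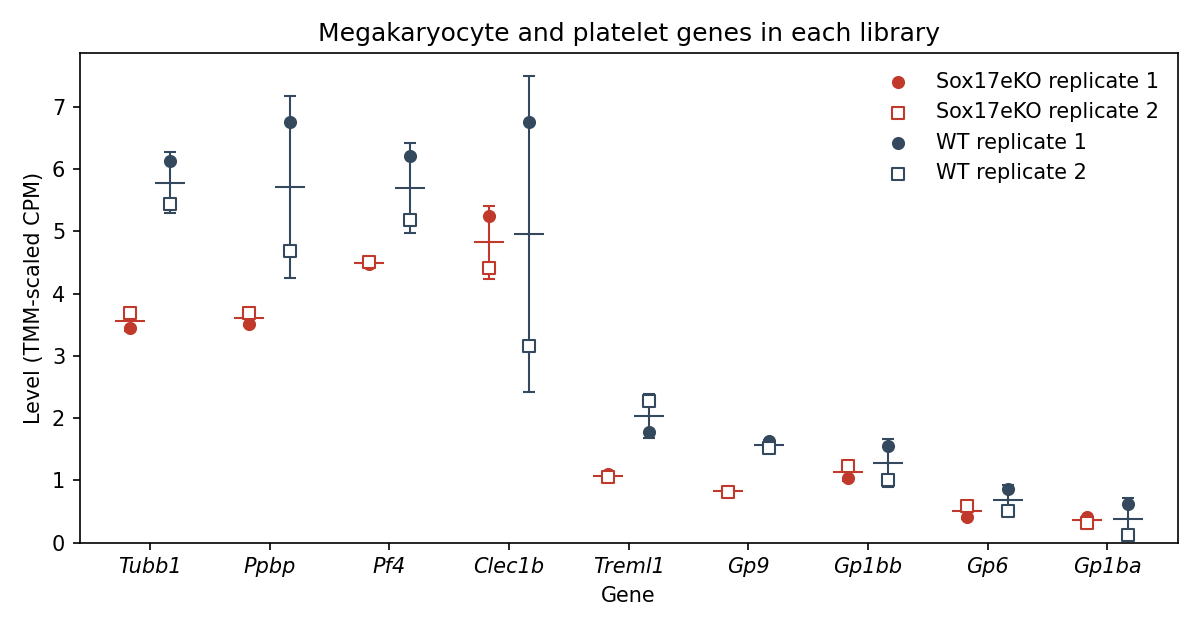
Level of each of the 9 megakaryocyte and platelet genes in TMM-scaled CPM (vertical axis), with Sox17eKO to the left of WT for each gene; filled circles are replicate 1, open squares replicate 2, and dashes with bars are the mean ± SD of 2 pools. Tubb1, Ppbp, Pf4, Treml1 and Gp9 were below both WT libraries in each Sox17eKO library, and Clec1b differed most between the WT pools (6.75 and 3.16 CPM).

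The genes fell into those whose genotypes separated and those whose genotypes overlapped. For Tubb1, Ppbp, Pf4, Treml1 and Gp9, both Sox17eKO libraries were below both WT libraries. The other 4 genes, Clec1b, Gp1bb, Gp6 and Gp1ba, overlapped. None of the 7 genes that met the filter on low counts passed the quasi-likelihood test of edgeR at a Benjamini-Hochberg adjusted p of 0.05, where 5.35% of the 16570 genes tested passed in either direction and 1.22% as lower. All 7 had a fitted value below 0, as did 51.8% of all genes tested. At an unadjusted p under 0.05 there were 4 of the 7 (Tubb1, Ppbp, Treml1 and Gp9), where 20.9% of all genes tested were under it. Genes with both Sox17eKO libraries below both WT libraries made up 26.2% of all genes tested. With limma-voom 0 of the 7 were called, and DESeq2 assigned no adjusted p to any of the 9 at their read counts.

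The granule chemokines were described first. Pf4 encodes platelet factor 4, a heparin-binding chemokine stored in platelet alpha granules, and is also expressed by some mouse macrophages. It had 4.48 and 4.50 CPM in Sox17eKO and 6.21 and 5.19 CPM in WT. These levels came from 65 and 99 reads in Sox17eKO and 80 and 41 reads in WT. The genotypes did not overlap, but the fitted log2 fold change (log2FC, Sox17eKO over WT) of -0.36 had a 95% interval of -0.81 to 0.09 and did not pass (edgeR adjusted p = 0.351). Ppbp encodes the precursor of the neutrophil-attracting chemokine CXCL7. Its level was 3.52 and 3.68 CPM in Sox17eKO and 6.75 and 4.68 CPM in WT. Both Sox17eKO libraries were below both WT libraries, and WT replicate 1 was the highest library. Its log2FC was -0.70 (SE 0.24, 95% interval -1.19 to -0.20, edgeR adjusted p = 0.0904). Without WT replicate 1 it was -0.37. Both genes lie on the plus strand of chromosome 5 (mm10), Ppbp from 90768518 to 90770063 and Pf4 from 90772435 to 90773383, with 2371 bases between them.

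Tubb1 encodes the beta-1 tubulin of megakaryocytes and platelets, which forms the microtubule ring that gives platelets their disc shape. It had 3.45 and 3.68 CPM in Sox17eKO and 6.13 and 5.44 CPM in WT. The genotypes were well apart, and this was the smallest p of the set. Its fitted Sox17eKO level was 61.4% of the WT level (log2FC -0.70, SE 0.22, 95% interval -1.17 to -0.23, edgeR adjusted p = 0.0735). It ranked 1261 of the 16570 genes by p. With 1 library left out in turn the log2FC ranged from -0.78 to -0.60. Tubb1 lies on chromosome 2 from 174450695 to 174457882 on the plus strand.

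Treml1 encodes TLT-1, a receptor held in alpha granules and moved to the platelet surface on activation. Its level was 1.10 and 1.05 CPM in Sox17eKO and 1.78 and 2.28 CPM in WT. These levels came from 16 and 23 reads in Sox17eKO and 23 and 18 reads in WT. Here WT replicate 2 was the highest library. The log2FC of -0.89 had a 95% interval of -1.67 to -0.10 (edgeR adjusted p = 0.177). Treml1 lies on chromosome 17 from 48359916 to 48367176 on the plus strand.

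The GPIb-IX complex, the platelet receptor for von Willebrand factor, is built from the products of Gp1ba, Gp1bb and Gp9, with that of Gp5 attached. Gp9 had 0.828 and 0.819 CPM in Sox17eKO and 1.63 and 1.52 CPM in WT. These levels came from 12 and 18 reads in Sox17eKO and 21 and 12 reads in WT. The libraries of each genotype were close together and the genotypes were apart. At 12 to 21 reads a library, such closeness says little about the spread between pools. With reads pooled, the ratio at equal depth was 0.518 with a 95% counting interval of 0.305 to 0.876. Its fitted Sox17eKO level was 52.2% of the WT level, the lowest ratio of the 7 tested genes (log2FC -0.94, 95% interval -1.79 to -0.08, edgeR adjusted p = 0.192). Gp1bb had 1.03 and 1.23 CPM in Sox17eKO and 1.55 and 1.01 CPM in WT, so the genotypes overlapped. Its log2FC of -0.22 had a 95% interval of -1.07 to 0.64 (edgeR adjusted p = 0.819) and was 0.18 without WT replicate 1. Of the 2087 exonic bases of Gp1bb, 1902 are also exonic in Sept5 on the same strand, so reads of the pair may have been set aside as ambiguous and the level of Gp1bb is uncertain. Sept5 itself had a log2FC of -0.13 (edgeR adjusted p = 0.738).

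Gp1ba encodes the chain that contacts von Willebrand factor. It was covered by 6 and 7 reads in Sox17eKO and by 8 and 1 reads in WT, and did not pass the filter on low counts. At equal depth the ratio of its reads, Sox17eKO over WT, was 0.823 with a 95% counting interval of 0.326 to 2.18, which covers counting error only, and the ratio rested on WT replicate 1. Of the complex, Gp9 thus lay apart between the genotypes while Gp1bb and Gp1ba overlapped. Whether the genes of the complex differ in response was not tested. Gp9 lies on chromosome 6 from 87778072 to 87779768 and Gp1ba on chromosome 11 from 70639122 to 70642036, both on the plus strand, and Gp1bb on the minus strand of chromosome 16 from 18620317 to 18622403.

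The receptors Clec1b and Gp6 overlapped between the genotypes. Clec1b encodes CLEC-2, the receptor for podoplanin. It had 5.24 and 4.41 CPM in Sox17eKO and 6.75 and 3.16 CPM in WT. WT replicate 1 was the highest library and WT replicate 2 the lowest, with both Sox17eKO libraries between them. The log2FC was -0.13 with a 95% interval of -0.70 to 0.45 (edgeR adjusted p = 0.843), and it was 0.60 without WT replicate 1. Pdpn, the gene for podoplanin, was at 20.4 ± 0.914 CPM in Sox17eKO and 23.4 ± 2.16 CPM in WT (mean ± SD, n = 2 each; log2FC -0.19, edgeR adjusted p = 0.377). Of the 5103 exonic bases of Clec1b, 184 are shared with Clec9a on the same strand. Clec1b lies on chromosome 6 from 129397297 to 129409335 on the plus strand.

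Gp6 encodes glycoprotein VI, the platelet collagen receptor, which signals through the Fc receptor gamma chain encoded by Fcer1g. It was covered by 6 and 13 reads in Sox17eKO and by 11 and 4 reads in WT, and did not pass the filter on low counts either. The ratio at equal depth was 0.722 with a 95% counting interval of 0.348 to 1.53. On the minus strand of chromosome 7, Gp6 spans bases 4363965 to 4397744. Fcer1g, which leukocytes also express, had 2.41 and 1.68 CPM in Sox17eKO and 2.64 and 2.40 CPM in WT, with a log2FC of -0.34 which missed the threshold (edgeR adjusted p = 0.594).

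With the reads of each genotype pooled, the ratio at equal depth ranged from 0.518 for Gp9 to 0.880 for Clec1b over the 9 genes. Set against WT replicate 2 alone, the mean Sox17eKO level was higher for Gp1ba (0.366 against 0.127 CPM), Clec1b (4.83 against 3.16 CPM) and Gp1bb (1.13 against 1.01 CPM), and about equal for Gp6 (0.503 against 0.506 CPM), so for these 4 genes a ratio below 1 rested on WT replicate 1. Fitted with no filter on low counts, the 9 had a median log2FC of -0.45, where the median of the 27989 genes in that fit was 0.03. The 9 genes share the same 4 libraries and, for the most part, the same cells, so they are not independent.

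**Figure D2:**
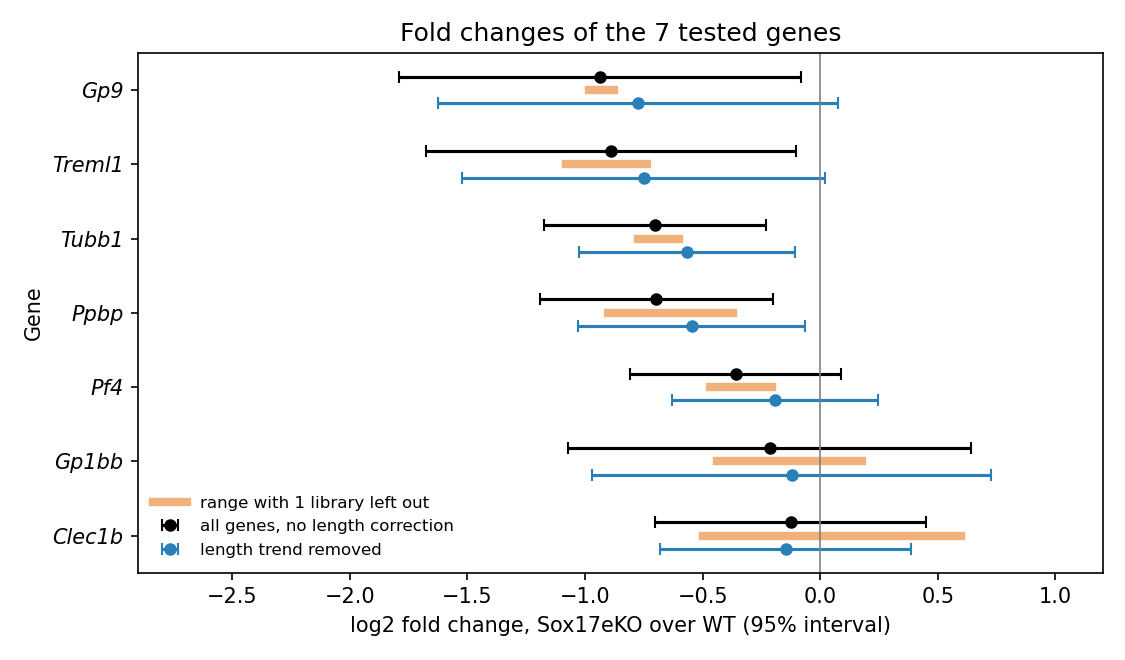
Log2 fold change of Sox17eKO over WT (horizontal axis) for the 7 tested genes (rows). Black points and bars are the fit with its 95% interval, blue the fit on protein-coding genes with the length trend removed, and the orange bar the range with 1 library left out; the ranges of Gp1bb and Clec1b reach above 0 (0.18 and 0.60).

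Levels were set side by side per length, as CPM per kilobase of exon. Pf4 stood highest, at 6.23 in Sox17eKO and 7.90 in WT. Ppbp followed at 3.32 in Sox17eKO and 5.28 in WT, and then Tubb1 at 2.54 and 4.11. In WT the order went on with Gp9 (1.79), Treml1 (1.45), Clec1b (0.971), Gp1bb (0.614), Gp1ba (0.137) and Gp6 (0.115). In that order the WT libraries of Ppbp overlapped with those of Tubb1, Treml1 with Clec1b, Clec1b with Gp1bb and Gp1ba with Gp6, so these neighbours did not differ beyond their spread. In Sox17eKO, Clec1b (0.946) took the fourth place, overlapping with Gp9 (0.934), and the other genes kept their sequence. The order depends on the annotated exonic length. By CPM alone, Clec1b had the highest mean of the set in Sox17eKO (4.83, Pf4 4.49), with the libraries of both genes overlapping.

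The share that each gene took of the reads of the set was compared between libraries. Pf4 made up 21.9% and 22.2% in Sox17eKO and 19.2% and 21.7% in WT, and Ppbp 17.2% and 18.2% in Sox17eKO and 20.9% and 19.6% in WT. The exact binomial intervals (95%) of each of the 2 genes overlapped among the 4 libraries. Clec1b made up 25.6% and 21.7% in Sox17eKO and 20.9% and 13.2% in WT. WT replicate 2 thus stood low for Clec1b, with an interval of 8.75% to 18.9%, below that of Sox17eKO replicate 1 (20.7% to 30.9%). Treml1 made up 5.39% and 5.16% in Sox17eKO and 5.53% and 9.52% in WT.

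**Figure D3:**
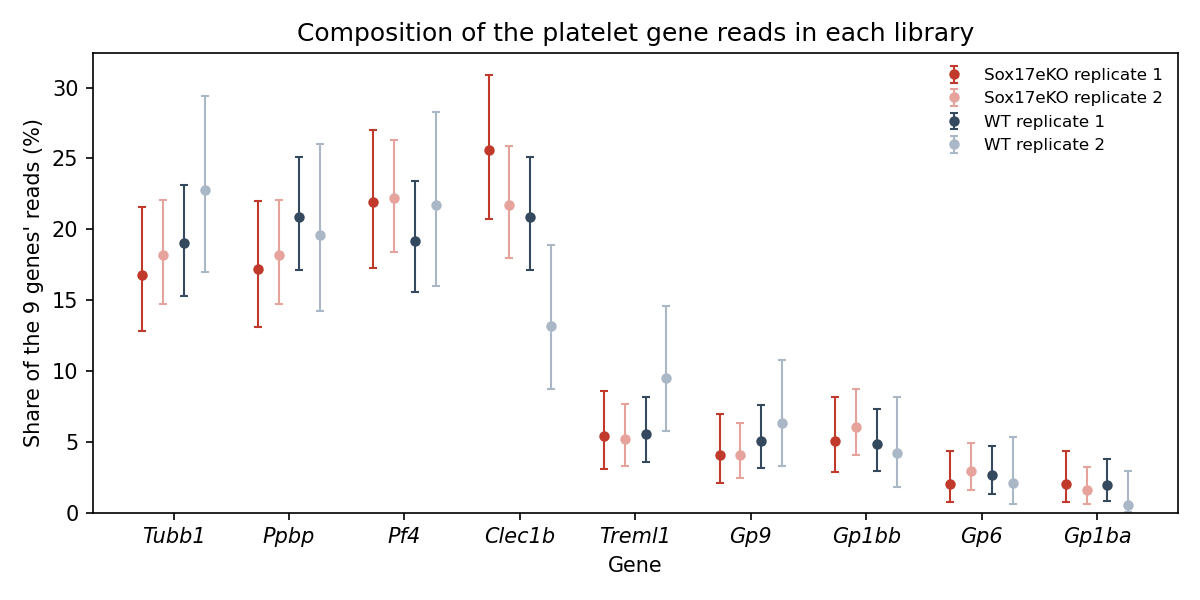
Share of the reads of the 9 genes taken by each gene (vertical axis, percent) in each library; points are single libraries and bars are exact 95% binomial intervals, which cover counting error only. The 4 libraries overlapped for most genes, and Clec1b was low in WT replicate 2 (13.2%).

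The genes whose genotypes were apart had shorter exonic sequence than those whose genotypes overlapped. The 5 genes with no overlap between genotypes had 721 (Pf4), 881 (Gp9), 1083 (Ppbp), 1402 (Treml1) and 1406 (Tubb1) exonic bases, and the other 4 had 2087 (Gp1bb), 2718 (Gp1ba), 5103 (Clec1b) and 5900 (Gp6). Exonic length was the union of all annotated exons of a gene. Of the other 4, Gp1ba and Gp6 had at most 8 and 13 reads in a library. Most exonic bases of Gp1bb are also exonic in Sept5. Across protein-coding genes, the shortest length group of 10 had a median log2FC of -0.15 and the longest one of 0.22. Genes of at most 1500 bases, a limit chosen after the values were seen, numbered 829 with a median of -0.17, where the 5 short genes of the set had a median of -0.70. After each library's smooth dependence on exonic length was taken out, the log2FC was -0.78 for Gp9, -0.75 for Treml1, -0.57 for Tubb1, -0.55 for Ppbp and -0.19 for Pf4. All 5 values were nearer to 0 than before. None passed in that fit, in which 1.03% of protein-coding genes did (lowest edgeR adjusted p of the set 0.240, for Tubb1).

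**Figure D4:**
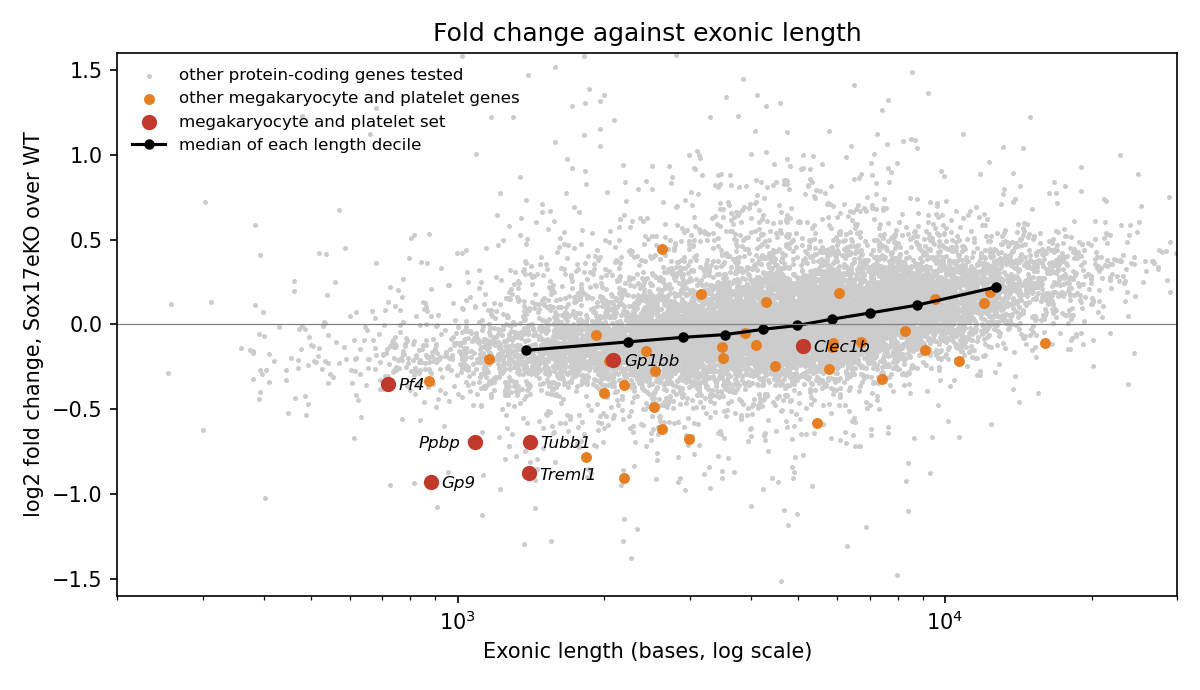
Log2 fold change of Sox17eKO over WT (vertical axis) against exonic length in bases (horizontal axis, log scale) for protein-coding genes tested; red points are the 7 tested genes of the set, orange points other megakaryocyte and platelet genes, grey points the rest, and the black line joins the medians of 10 length groups. The medians run from -0.15 to 0.22, and Gp9, Treml1, Tubb1 and Ppbp lie below the line at their length; genes beyond 1.6 in either direction or outside the drawn lengths are not shown.

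A further list of 39 megakaryocyte and platelet genes covered other receptors, granule proteins, enzymes and transcription factors. Of the 35 tested, Itga2b fell and none rose, against 5.35% called among all genes. Their median log2FC was -0.17, where that of all genes tested was -0.01. Both Sox17eKO libraries were below both WT libraries for 18 of the 35 (26.2% of all genes tested) and above them for 3 (26.5%). Itga2b, the alpha subunit of the platelet fibrinogen receptor, had 10.0 and 8.73 CPM in Sox17eKO and 14.6 and 13.3 CPM in WT. Its log2FC was -0.59 (SE 0.15, edgeR adjusted p = 0.0243), and the call ended without either WT library or without Sox17eKO replicate 2. With the length trend removed it was -0.62 (edgeR adjusted p = 0.0412).

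Gp5, the glycoprotein attached to the GPIb-IX complex, resembled Gp9. It had 1.10 and 0.864 CPM in Sox17eKO and 1.86 and 1.77 CPM in WT, a log2FC of -0.91 which missed the threshold (edgeR adjusted p = 0.182). Its exonic length of 2197 bases is beyond that of the 5 short genes, and with the length trend removed its log2FC was -0.82. Nfe2, a transcription factor needed for platelet release, had 2.76 and 2.18 CPM in Sox17eKO and 3.18 and 4.93 CPM in WT (log2FC -0.69, edgeR adjusted p = 0.182). Vwf, which endothelium expresses too, had 26.9 and 24.3 CPM in Sox17eKO and 28.2 and 27.2 CPM in WT (log2FC -0.12, edgeR adjusted p = 0.589).

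Of the other listed genes with the smallest p, Myl9, a myosin light chain gene that smooth muscle also expresses, had a log2FC of -0.21 (edgeR adjusted p = 0.137). Cd9, a tetraspanin gene, had one of -0.22 (0.221), Zfpm1, the gene for the GATA1 cofactor FOG1, one of -0.21 (0.313), and Plek, the gene for pleckstrin, one of -0.25 (0.331), none of them past the threshold. Fitted values above 0, none past the threshold, included those of Nbeal2, P2ry1, Rasgrp2, Runx1, Slc35d3 and Thbs1, of which several are expressed well outside megakaryocytes.

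Other blood cells were set beside the platelet genes. The 18 erythroid genes found summed to 1977 and 2582 CPM in Sox17eKO and to 2888 and 3856 CPM in WT, a ratio of means of 0.676. Both lists were thus lower in both Sox17eKO libraries, but WT replicate 2 held the most erythroid signal and WT replicate 1 the most platelet signal. The sums of the further megakaryocyte, macrophage, pan-endothelial and smooth muscle lists were also lower in both (ratios of means 0.937, 0.950, 0.933 and 0.903). Those of the cardiomyocyte, liver, neutrophil and mast cell, and outflow tract lists overlapped between the genotypes. The platelet set amounted to 1.04% and 0.786% of the erythroid sum in Sox17eKO and to 1.12% and 0.620% in WT, so the genotypes overlapped in that share. All 18 erythroid genes had a fitted value below 0, with a median log2FC of -0.46, where 51.8% of all genes tested were below 0. Hbb-y, an embryonic beta-like globin gene, fell (-0.56, edgeR adjusted p = 0.0288), a call that ended without Sox17eKO replicate 1 (0.168), WT replicate 1 (0.0632) or WT replicate 2 (0.290) and with DESeq2 (0.104), with protein-coding genes alone (0.0528) or with the length trend removed (0.266). The part of the erythroid difference in the platelet values was not tested.

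The macrophage and leukocyte list of 18 genes summed to 149.4 and 148.9 CPM in Sox17eKO and to 150.7 and 163.1 CPM in WT. Of its 16 tested genes 0 were called by edgeR and 0 had an unadjusted p under 0.05, with 7 fitted values above 0 and 9 below, and Cd163 and Timd4 were near 0 (at most 1 and 6 reads in a library). Mrc1, the most abundant of them, had a log2FC of -0.20 (edgeR adjusted p = 0.242). The platelet set amounted to 13.7% and 13.6% of this sum in Sox17eKO and to 21.4% and 14.7% in WT. The pan-endothelial list of 15 genes summed to 1147 and 1228 CPM in Sox17eKO and to 1247 and 1299 CPM in WT, and its gene Tie1 fell (-0.34, edgeR adjusted p = 0.0204, and 0.173 without Sox17eKO replicate 1 or 0.235 without WT replicate 2). The part of either list in the platelet values was not tested.

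Liver transcripts, which mark tissue where megakaryocytes also reside, overlapped between the genotypes. The 9 liver genes summed to 7.45 and 130.0 CPM in Sox17eKO and to 76.3 and 13.9 CPM in WT, with Afp the most abundant. The Sox17eKO libraries, far apart in liver signal, had nearly equal platelet sums. In WT the pool with more liver signal was also the one with more platelet signal. The part of the liver signal in the platelet values was not tested.

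**Figure D5:**
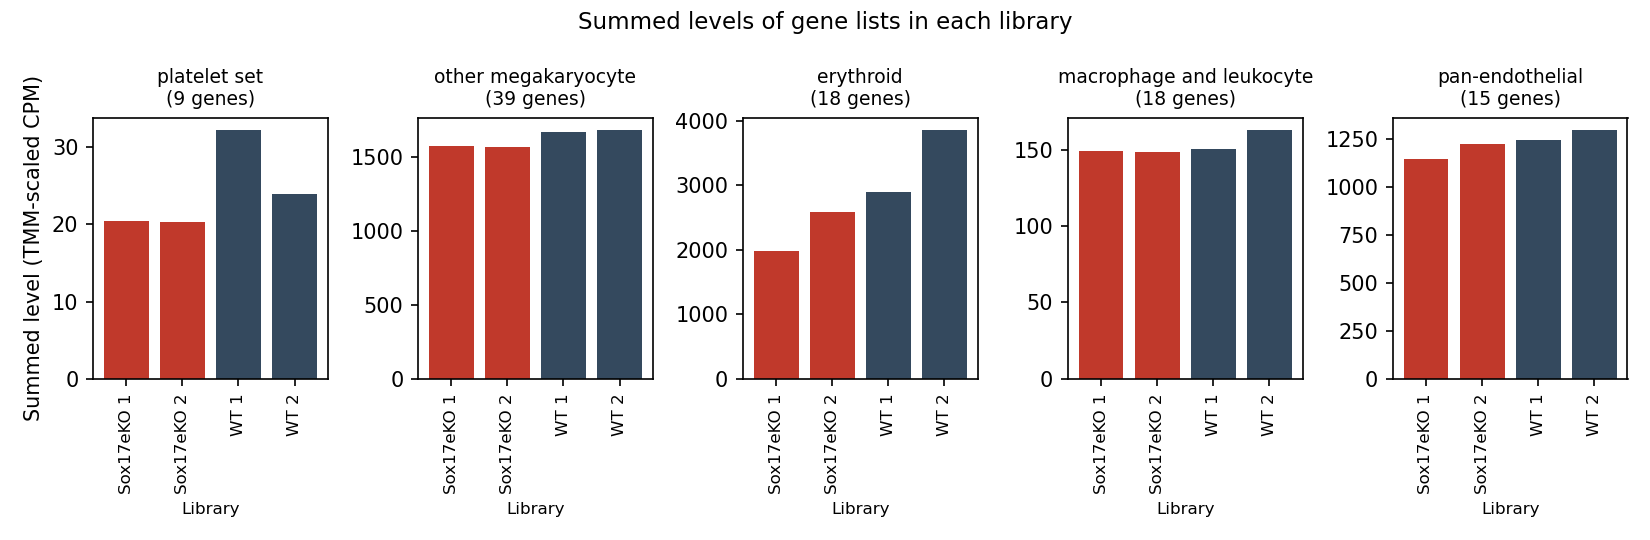
Summed level of each gene list in TMM-scaled CPM (vertical axes, each from 0 and on its own scale) in the 4 libraries, Sox17eKO in red and WT in dark blue. The platelet set was highest in WT replicate 1 (32.3 CPM) and the erythroid list in WT replicate 2 (3856 CPM), while the macrophage and endothelial lists differed less between libraries.

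The genes whose profile over the 4 libraries was most like that of the summed platelet level were sought among 11327 protein-coding genes outside all lists with a mean of at least 50 reads. By root mean square distance of centred log2 values the nearest 3 were Gstk1 (0.0364), Sgms2 (0.0583) and Cdc34b (0.0653). Gstk1, a glutathione transferase gene, had 3.86 and 3.55 CPM in Sox17eKO and 6.21 and 4.55 CPM in WT. Like the platelet sum, it was highest in WT replicate 1, and none of the 3 passed the test (edgeR adjusted p = 0.162, 0.259 and 0.204).

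The 250 bases before the transcription start were compared as a description. No gene of the set was called, and shared control of the genes was not tested. The windows shown are those of the 3 genes with the highest CPM per kilobase, whose genotypes were apart (Pf4, Ppbp and Tubb1), and of Gp1ba and Clec1b, which overlapped. Sequences are the plus strand of GRCm38.p6, 5′ to 3′, from RefSeq, which had all 9 genes: chr5:90772185-90772434 for Pf4, chr5:90768268-90768517 for Ppbp, chr2:174450345-174450594 for Tubb1, chr11:70638872-70639121 for Gp1ba and chr6:129397047-129397296 for Clec1b. Capitals mark matches on either strand to a GATA motif, spelled AGATAA or else AGATAG or else TGATAA or else TGATAG, the kind bound by GATA1, and to an ETS motif, spelled CCGGAA or else CAGGAA, the kind bound by FLI1. Both factors direct megakaryocyte gene expression.
Pf4: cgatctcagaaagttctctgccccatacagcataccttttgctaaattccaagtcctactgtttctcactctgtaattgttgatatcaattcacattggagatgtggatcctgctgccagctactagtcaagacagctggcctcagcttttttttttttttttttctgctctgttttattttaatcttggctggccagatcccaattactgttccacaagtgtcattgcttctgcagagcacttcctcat
Ppbp: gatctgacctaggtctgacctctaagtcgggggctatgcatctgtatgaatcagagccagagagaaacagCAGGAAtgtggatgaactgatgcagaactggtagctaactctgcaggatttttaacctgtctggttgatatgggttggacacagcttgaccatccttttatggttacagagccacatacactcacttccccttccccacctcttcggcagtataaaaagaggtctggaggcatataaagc
Tubb1: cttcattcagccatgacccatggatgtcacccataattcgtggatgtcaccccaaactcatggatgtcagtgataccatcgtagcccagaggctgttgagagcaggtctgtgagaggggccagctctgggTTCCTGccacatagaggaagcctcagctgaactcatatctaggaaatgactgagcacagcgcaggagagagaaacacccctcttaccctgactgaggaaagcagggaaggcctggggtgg
Gp1ba: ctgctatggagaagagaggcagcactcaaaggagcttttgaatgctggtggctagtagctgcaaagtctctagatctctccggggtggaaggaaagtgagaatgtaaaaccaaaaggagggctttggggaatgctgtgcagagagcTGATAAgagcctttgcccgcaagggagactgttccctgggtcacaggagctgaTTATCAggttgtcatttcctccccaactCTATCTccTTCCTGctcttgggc
Clec1b: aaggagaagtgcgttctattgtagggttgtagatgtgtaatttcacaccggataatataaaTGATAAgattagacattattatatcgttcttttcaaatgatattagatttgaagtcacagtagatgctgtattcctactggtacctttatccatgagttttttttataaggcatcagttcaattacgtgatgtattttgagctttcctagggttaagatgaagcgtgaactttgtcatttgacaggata

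A GATA match was found in 4 of the 9 windows, those of Gp1ba, Gp1bb, Gp6 and Clec1b, where 26.5% of 32851 RefSeq promoter windows of the same length held one. An ETS match was found in 4 of the 9, those of Ppbp, Gp1ba, Treml1 and Tubb1, where 35.1% of all windows held one. No base lay in matches to both motifs. Gp1ba, with 3 GATA matches and 1 ETS match, was the only window of the 9 with both, as were 8.52% of all windows. The 4 genes with a GATA match were the 4 whose genotypes overlapped, which was noticed after the values were seen and not tested. These matches describe letters in a window, not sites of binding. Of the factor genes, Gata1 had 1.31 and 1.23 CPM in Sox17eKO and 1.01 and 2.02 CPM in WT, and Fli1 had 38.6 and 41.9 CPM in Sox17eKO and 44.1 and 45.0 CPM in WT, neither past the threshold (edgeR adjusted p = 0.860 and 0.400).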

How the data were processed

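Per the labels' protocols, TRIzol RNA of pooled outflow tracts went into strand-specific Illumina libraries. What the authors deposited are unnormalised counts of reads for each Ensembl gene. TopHat2, HTSeq and mm10 were used, per the submitters' processing notes; their versions, the annotation release and how strand was treated are not given in the sources used here. Titles of the samples gave groups and replicate numbers. Symbols (45143 of 45706 genes), positions and exonic lengths came from GENCODE M21 on GRCm38 (mm10), which may differ from the authors' annotation. Library sizes and tests excluded the 5 summary rows of HTSeq. Reads set aside as ambiguous were 3.38% to 6.22% of uniquely placed reads. Entries that were not uniquely placed made up 72.5% to 79% of all entries of a library, summary rows included. They were highest in WT replicate 2.

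Genes were tested by quasi-likelihood in edgeR 4.0.16 (R 4.3.3; robust, prior count 0.125, TMM factors, filterByExpr, genotype as the only term) on 16570 genes, with Benjamini-Hochberg adjustment over all of them and a threshold of 0.05. Standard errors (SE) were derived from the log2 fold change and its F statistic. The p-values measure the spread between 2 pools per genotype, with 2 residual degrees of freedom per gene, moderated by variance information shared across genes. Alternatives used DESeq2 1.42.0, limma 3.58.1, other scalings and filters, a replicate block, single libraries left out, and a length trend removed through offsets (mgcv 1.9.3). Same-numbered libraries did not deviate together (correlation -0.0319 over genes). The scripts were tested on simulated data. Members, lists and tests were chosen with earlier results of these data known. The named genes were all 9 members, Sox17, called genes and the 6 smallest p of the further megakaryocyte list, Pdpn, Vwf, Fcer1g, the called genes and the most abundant gene of each cell type list, and the 5 nearest profiles, of which some named genes are not reported here. Other genes were named after their values were seen.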

Additional observations from a re-analysis of the deposited data

Results flagged for a closer look

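Reads outside annotated features, which no test used, made up 34.1% and 29.5% of uniquely placed reads in Sox17eKO replicates 1 and 2, above the 22.2% and 20.4% in WT replicates 1 and 2.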

How the results depend on the processing

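No gene of the set was called in any alternative that gave an adjusted p, and DESeq2 gave none for them. Tubb1, Ppbp, Gp9, Treml1 and Pf4 kept a fitted value below 0 in all 13 alternatives, and the lowest adjusted p was 0.0534, for Tubb1 with the replicate block. With 1 library left out Clec1b ranged from -0.50 to 0.60 (0.60 without WT replicate 1 and 0.003 without Sox17eKO replicate 2) and Gp1bb from -0.44 to 0.18 (without WT replicate 1). The number of all genes called, 886, was 424 with DESeq2, 1364 with no filter, 517 with limma-voom, 1684 with the replicate block, 138 with the length trend removed and 103 to 970 with 1 library left out. In edgeR with all 4 libraries, the further megakaryocyte list had 1 call, Itga2b. DESeq2 called 0 of the list but gave an adjusted p to 3 of its genes only. Itga2b was not among those 3, and Sox17 had no adjusted p from DESeq2 either, so it could call neither. With 1 library left out the log2FC of Itga2b ranged from -0.68 to -0.49. That of Thbs1, not called with all 4 libraries (0.17, edgeR adjusted p = 0.337), was 0.37 without WT replicate 1. The single call of the list thus depended on the libraries used. The replicate block changed no call among the 9 genes. The Hbb-y, Tie1, Nppa, Cnn1 and Myocd calls each ended in at least 2 alternatives; Sox17 was not called without WT replicate 2 (0.0786). The causes were not tested. Read number limits Gp1ba and Gp6: 3 reads correspond to 0.136 to 0.380 CPM.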

Other observations

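Of the 11 genes of the neutrophil and mast cell list, 2 passed the filter on low counts (Mpo and Kit), 0 were called by edgeR, and 1 had an unadjusted p under 0.05. Both Sox17eKO libraries were above both WT libraries for 3 of the 11 (Mpo, S100a9 and Camp), and the other 8 overlapped. Of the 2 that passed the filter it held for 1, Mpo, and among all genes tested for 26.5%. The 3 of 11 include genes below the filter, so that count is not on the same footing as the 26.5%. These 3 genes were named after their values were seen. Mpo, the myeloperoxidase gene, had 19 and 17 reads in Sox17eKO and 2 and 2 reads in WT, a fitted log2 fold change of 2.33 that missed the threshold (edgeR adjusted p = 0.0518) and passed with no filter on low counts (0.0295) or with protein-coding genes alone (0.0477), but not with the length trend removed (0.103). S100a9, the gene for a calcium-binding protein of neutrophils, had 19 and 11 reads in Sox17eKO and 0 and 3 reads in WT. It did not pass the filter, and with no filter its log2 fold change was 2.47 (95% interval 0.90 to 4.05, edgeR adjusted p = 0.0443). Kit, which progenitors and mast cells share, had 16.7 and 21.2 CPM in Sox17eKO and 18.7 and 19.6 CPM in WT (edgeR adjusted p = 0.990). Cnn1 fell and Myocd rose among 5 smooth muscle genes (log2 fold changes -0.35 and 0.31, edgeR adjusted p = 0.0239 and 0.0423), and Nppa fell among 10 cardiomyocyte genes (-0.34, edgeR adjusted p = 0.0158). Of the 6 outflow tract and second heart field genes none was called (edgeR), and none was under an unadjusted p of 0.05; Hand2, the most abundant, had a fitted log2 difference of -0.12 (edgeR adjusted p = 0.379). Clec9a, which overlaps Clec1b and was named after its values were seen, had 1.38 and 1.14 CPM in Sox17eKO and 0.543 and 0.506 CPM in WT (log2 fold change 1.22, edgeR adjusted p = 0.154).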
